A study of Mus musculus with 43 samples.

Results

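The genes of muscle mass control followed here were *Fbxo32*, *Trim63*, *Mstn*, *Myod1*, *Myog*, *Bnip3*, *Abra*, *Lmod2* and *Myoz2*. They were chosen by name, with earlier results of these data at hand. They are genes known from muscle wasting, muscle growth or sarcomere remodelling. All 9 were found among the 42349 entries of the deposited expression table. RNA came from 4 tissues of female mice, namely skeletal muscle, liver, brain and inguinal white adipose (WAT). The mice were wild type (WT, Irs1+/+) or carried a global deletion of insulin receptor substrate 1 (KO, Irs1-/-). Mice of both genotypes were 15 months old and ate a purified high-carbohydrate chow, either ad libitum (AL) or, from 10 weeks of age and for 12 months, under 30% dietary restriction (DR). The 4 skeletal muscle groups were WTAL with 2 libraries and WTDR, KOAL and KODR with 3 each. Every value is the authors' FPKM for a whole group (fragments per kilobase of transcript and per unit of mapped fragments, a level corrected for gene length), with the 95% interval that their software gave. No value of a single library was analysed here, so the spread between mice enters only through that interval.

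Muscle mass reflects a balance of protein synthesis and breakdown. Insulin and IGF signalling act through IRS proteins and Akt, which keep FoxO transcription factors out of the nucleus. When this signal is low, or glucocorticoids are high, FoxO factors and the glucocorticoid receptor drive the ubiquitin ligases FBXO32 (MAFbx) and TRIM63 (MuRF1), which tag muscle proteins for the proteasome and are the usual markers of atrophy. Myostatin (*Mstn*) is a secreted member of the TGF-beta family that restrains muscle growth. MYOD1 and MYOG are basic helix-loop-helix factors of muscle differentiation, and BNIP3 is a mitophagy receptor of the outer mitochondrial membrane. ABRA, also called STARS, binds actin and raises the activity of serum response factor (SRF), LMOD2 is a leiomodin that nucleates and lengthens thin filaments, and MYOZ2 is a calsarcin that ties calcineurin to the Z disc, mainly in slow and cardiac muscle.

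Restricted wild-type muscle held less RNA of *Trim63*, *Lmod2* and *Myoz2* than ad libitum wild-type muscle, by 6.02-fold, 4.57-fold and 4.41-fold. *Trim63* and *Lmod2* were also lower in the group labelled KODR than in WTAL, by 7.78-fold and 3.76-fold. *Mstn*, *Myod1*, *Myog* and *Bnip3* differed by at most 1.55-fold between any 2 muscle groups, and none of them passed the test. The plot of levels in the 4 muscle groups shows that for *Trim63*, *Fbxo32*, *Lmod2*, *Myoz2* and *Abra* the highest FPKM was that of WTAL.

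**Figure D1:**
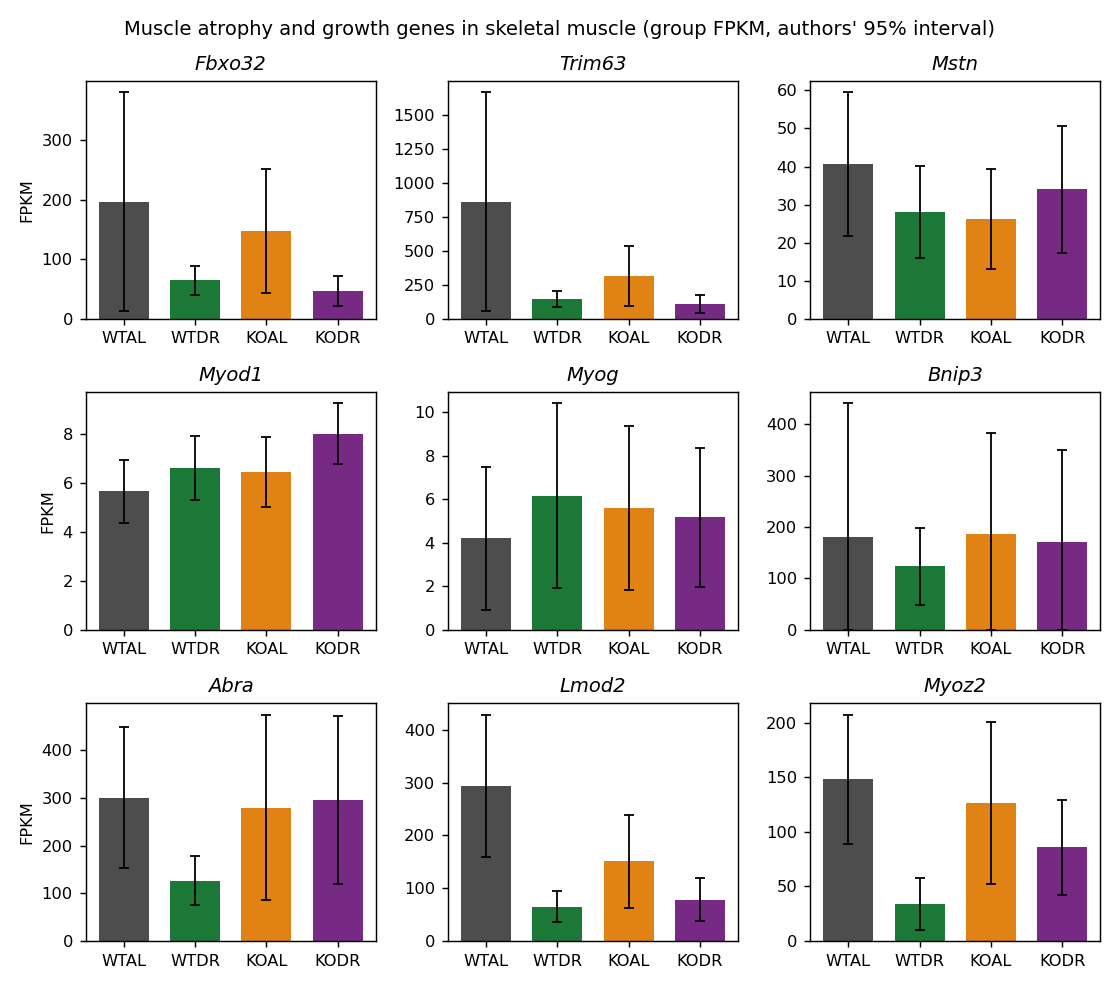
FPKM of the 9 genes in the 4 skeletal muscle groups. Bars are group values of the authors and start at 0, and lines are the authors' 95% intervals. *Trim63* stood at 860 in WTAL and between 111 and 315 in the other groups, with an interval in WTAL that reaches down to 54.3.

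The groups labelled KO did not show low *Irs1*. Its FPKM in muscle was 5.72 in WTAL, 5.48 in WTDR, 6.31 in KOAL and 5.82 in KODR, and a single value per gene cannot tell a deleted part from the rest. Directions are therefore those of the labels. Tissue labels matched their markers: 10 skeletal muscle markers summed to between 105197 and 172067 FPKM in the muscle groups, against at most 1038 in any group of the other tissues. Marker sums of other tissues set some muscle groups apart. Liver markers summed to 2732 FPKM in WTDR muscle, against 51.7 to 252 in the other muscle groups, and 7 of the 10 passed the test as higher in WTDR than in WTAL. Red blood cell markers summed to 11596 and 20284 FPKM in KOAL and KODR, against 950 and 1554 in WTAL and WTDR. In bulk tissue, fewer cells of a type and less RNA per cell cannot be told apart, and shares of other tissues in a sample move every FPKM. The muscle that was taken, and the time since the last meal, are not given in the sources used here.

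Of the ligases *Trim63* and *Fbxo32*, *Trim63* (chr4:134315120-134329629, plus strand, GRCm38) had the higher FPKM in every muscle group and was the one that passed the test. Its FPKM was 860 in WTAL (interval 54.3 to 1666), 143 in WTDR (84.7 to 201), 315 in KOAL (92.3 to 537) and 111 in KODR (45.0 to 176). WTAL was the highest group and the least precise one, and its interval overlapped those of all the other groups. On the log2 scale WTDR lay below WTAL by a difference of -2.59 ± 0.74 (SE), which passed the Wald test at an FDR of 10% after Benjamini-Hochberg adjustment over all entries tested. Genes are said to rise, fall or pass only where they did so by this test. KODR lay below WTAL by -2.96 ± 0.80, which also passed. The difference between KOAL and WTAL was -1.45, with a 95% interval of -3.11 to 0.21, and that between KODR and WTDR was -0.37 (-1.39 to 0.65). In the order WTAL, KOAL, WTDR, KODR no pair of neighbours passed the test. Intervals that do not overlap, used in place of the test, called *Trim63* in neither comparison.

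*Fbxo32* (chr15:58175879-58214932, minus strand) had the same order of groups at a lower level. Its FPKM was 196 in WTAL (12.9 to 380), 147 in KOAL (43.6 to 250), 64.5 in WTDR (39.8 to 89.2) and 45.9 in KODR (20.8 to 70.9). Both DR groups had lower values than both AL groups, and the intervals of KOAL and KODR, and of WTAL and every other group, overlapped. The log2 difference was -1.61 ± 0.73 between WTDR and WTAL, -1.68 ± 0.64 between KODR and KOAL and -2.10 ± 0.78 between KODR and WTAL, and none passed. The ratio of *Trim63* to *Fbxo32* FPKM was 4.38 in WTAL and 2.22, 2.14 and 2.41 in WTDR, KOAL and KODR. The long non-coding RNA *Gm15943*, which runs antisense to *Fbxo32*, had an FPKM of at most 0.0643 in muscle, far below that of *Fbxo32*. The locus of the deposited *Fbxo32* entry, chr15:58175879-58324169, is wider than the GENCODE span of the gene. The stretch outside that span was not examined.

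*Lmod2* (chr6:24597762-24605414, plus strand) had the smallest p of the 9 genes in muscle. Its FPKM was 294 in WTAL (159 to 429), 64.4 in WTDR (35.0 to 93.7), 151 in KOAL (62.3 to 239) and 78.3 in KODR (37.4 to 119). The interval of WTAL lay wholly above those of both DR groups, while that of KOAL overlapped all of them. WTDR was lower than WTAL by -2.19 ± 0.47 on the log2 scale, and KODR was lower than WTAL by -1.91 ± 0.50. Both differences passed the test. Between KOAL and WTAL the difference was -0.96 (95% interval -2.02 to 0.09), and between KODR and WTDR it was 0.28 (-0.70 to 1.26).

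*Myoz2* (chr3:123006206-123035015, minus strand) passed the test between WTDR and WTAL and between no other pair of muscle groups. Its FPKM was 148 in WTAL (89.2 to 207), 33.6 in WTDR (10.0 to 57.2), 127 in KOAL (52.4 to 201) and 85.8 in KODR (42.2 to 129). The interval of WTDR lay below that of WTAL and overlapped those of the groups labelled KO. The log2 difference of WTDR from WTAL was -2.14 ± 0.58. KODR exceeded WTDR by a log2 value of 1.35 ± 0.63 and KOAL exceeded WTDR by 1.91 ± 0.66, neither of which passed. The ratio of *Lmod2* to *Myoz2* FPKM was 1.98 in WTAL, 1.91 in WTDR, 1.19 in KOAL and 0.912 in KODR.

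The 250 bases before the RefSeq transcription start of the 3 genes that passed the test are shown, since they are the genes on which the muscle results turn. They are RefSeq sequences of GRCm38.p6, written 5′ to 3′ on the strand of the gene. Capitals mark exact matches, on either strand, to a FoxO site (GTAAACA), the E-box CAGCTG that MYOD1 and MYOG bind or a TATA box (TATAAA). They also mark the MEF2 box (YTAWWWWTAR) and the CArG box of SRF (CCWWWWWWGG), with Y for C or T, W for A or T and R for A or G.
Trim63, chr4:134314870-134315119, plus strand: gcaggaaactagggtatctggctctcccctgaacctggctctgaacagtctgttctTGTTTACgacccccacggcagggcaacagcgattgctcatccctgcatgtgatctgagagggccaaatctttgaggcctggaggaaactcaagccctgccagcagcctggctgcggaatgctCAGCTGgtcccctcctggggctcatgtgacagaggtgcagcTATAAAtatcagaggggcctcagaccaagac
Lmod2, chr6:24597521-24597770, plus strand: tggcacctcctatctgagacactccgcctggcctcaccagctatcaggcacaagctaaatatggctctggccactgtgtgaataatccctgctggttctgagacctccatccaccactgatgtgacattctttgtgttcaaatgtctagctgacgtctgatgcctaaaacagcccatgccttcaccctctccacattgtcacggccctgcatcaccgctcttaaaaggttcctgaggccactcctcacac
Myoz2, chr3:123034988-123035237, minus strand: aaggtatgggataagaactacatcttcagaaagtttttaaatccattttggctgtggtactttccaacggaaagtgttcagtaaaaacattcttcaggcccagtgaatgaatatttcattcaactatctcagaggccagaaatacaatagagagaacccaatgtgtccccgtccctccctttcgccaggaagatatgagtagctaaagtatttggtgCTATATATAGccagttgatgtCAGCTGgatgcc
Counted back from the start at -1, the *Trim63* window held a FoxO match on the opposite strand at -194 to -188, an E-box at -72 to -67 and a TATA box at -31 to -26. The *Myoz2* window held a MEF2 box at -33 to -24 and an E-box at -12 to -7. Gene spans in the text are those of GENCODE, whose starts can differ from RefSeq. The windows of *Lmod2*, *Myoz2*, *Myog* and *Bnip3* reach into their GENCODE spans. By the GENCODE start of *Myoz2* (chr3:123035015) the E-box lies inside the gene and the MEF2 box spans the start. The *Lmod2* window held no match to these 5 motifs. Among 32851 RefSeq windows of this length, 3.17% held the FoxO letters, 13.0% the E-box, 12.4% the TATA box, 2.92% a MEF2 box and 1.47% a CArG box. Windows were found for 6 of the 9 genes. Of those not printed, that of *Mstn* held a TATA box at -29 to -24, and those of *Myog* and *Bnip3* held no exact match to the 5. The *Myog* window does hold ctatatttat, which departs from the MEF2 pattern only in its last letter. The *Lmod2* window holds ctaaatatgg, which departs from the CArG pattern only in its second letter. Sites that depart from a pattern were not counted, so other near matches may be present. No pattern of the glucocorticoid receptor was searched for in any window. A match describes the letters and not binding.

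*Abra* (chr15:41864076-41869720, minus strand) was lowest in WTDR. Its FPKM values were 301 in WTAL, 126 in WTDR, 280 in KOAL and 296 in KODR. WTDR lay below WTAL by -1.25 ± 0.46 on the log2 scale, and KODR lay above WTDR by 1.23 ± 0.52, and *Abra* did not pass in any comparison. KODR and WTAL differed by -0.02 (95% interval -1.11 to 1.07).

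The growth inhibitor and the myogenic factors varied little. *Mstn* (chr1:53061640-53068079, plus strand) had FPKM values of 40.7, 28.1, 26.2 and 34.0 in WTAL, WTDR, KOAL and KODR, and the log2 difference of WTDR from WTAL was -0.53 (95% interval -1.42 to 0.36). *Myod1* (chr7:46376474-46379099, plus strand) had values of 5.64, 6.60, 6.43 and 8.0 and the narrowest intervals of the 9, with an SD of 7.69% to 11.4% of the FPKM. The widest gap of *Myod1*, KODR above WTAL by 0.50 ± 0.20 on the log2 scale, did not pass. *Myog* (chr1:134289989-134292548, plus strand) had values of 4.20, 6.16, 5.58 and 5.16, and its difference of 0.55 between WTDR and WTAL had a 95% interval of -0.92 to 2.02. *Bnip3* (chr7:138890836-138909519, minus strand) had values of 180, 124, 186 and 172 with intervals that began at 0 in 3 of the 4 groups. Its log2 difference of WTDR from WTAL, -0.55 with a 95% interval of -2.76 to 1.66, reaches well to both sides of 0. *Bnip3* overlaps the antisense gene *Gm45507* and the processed pseudogene *Gm18258* in the annotation. No level was obtained for either, and an effect of them on the *Bnip3* value was not tested.

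In numbers, 3 of the 9 genes passed an FDR of 10% between WTDR and WTAL, all as lower, against 1.4% of the 14089 entries tested in either direction and 0.603% as lower. The 9 genes were chosen with earlier results of these data known. Their counts beside the shares over all entries are therefore a description and not a test of the set. Of the 9 genes 7 had a lower FPKM in WTDR, with a median log2 difference of -1.25 against -0.06 over all entries. An unadjusted p under 0.05 was found for 5 of them, against 5.05% of entries. Between KODR and WTAL 2 passed, against 0.875% of entries. By the Wald test 0 of 9 passed between KOAL and WTAL (background 0.681%), KODR and WTDR (2.23%), KODR and KOAL (0.5%) and KOAL and WTDR (1.89%), where 0, 2, 2 and 4 genes had an unadjusted p under 0.05. Over all entries the share under that limit was 3.18%, 5.81%, 2.01% and 5.04% in the same order. The 3 comparisons with WTAL share its 2 libraries, and the high values of WTAL enter all of them. The interaction, the diet difference in the groups labelled KO less that in WT, was passed by 0 of 9 genes (background 0.371%) and none had an unadjusted p under 0.05 (2.30% of entries). Its value for *Myoz2* was 1.58 ± 0.81, so a diet response that differs between genotypes was not shown for *Myoz2* or for the other 8 genes. The calls depended on the error model. With a t distribution at the few degrees of freedom that the libraries allow, 2 entries and 0 of the 9 genes passed between WTDR and WTAL, and with the SD divided by the square root of the number of libraries 897 entries and 5 of the 9 genes did, *Abra* and *Fbxo32* among them. The plot of log2 differences sets these comparisons side by side.

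**Figure D2:**
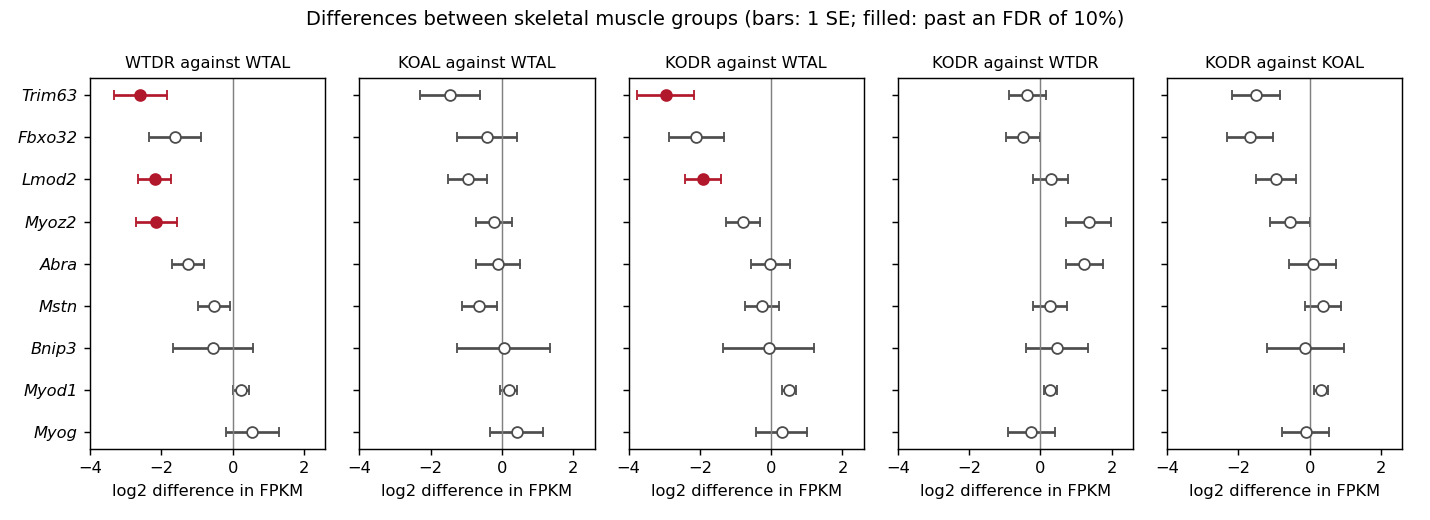
Log2 difference in FPKM (horizontal axis) of each gene in 5 comparisons of skeletal muscle groups, with the group named first minus the second. Points are differences, bars are 1 SE, and filled red points passed an FDR of 10%: *Trim63*, *Lmod2* and *Myoz2* in WTDR against WTAL, and *Trim63* and *Lmod2* in KODR against WTAL.

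Slow fibre markers were at their lowest summed level in WTDR, which was also the lowest group for *Lmod2*, *Myoz2*, *Abra* and *Bnip3*. The 10 slow fibre markers summed to 961 FPKM in WTAL, 405 in WTDR, 1358 in KOAL and 1261 in KODR. All 10 had lower values in WTDR than in WTAL, with a median log2 difference of -1.34 against -0.06 over all entries, although 0 passed the Wald test and 2 had an unadjusted p under 0.05. All 10 had higher values in KODR than in WTDR, with a median of 1.49. *Myh7*, the slow myosin heavy chain, had an FPKM of 123, 32.6, 84.8 and 83.6 in WTAL, WTDR, KOAL and KODR. Between KODR and WTAL, where *Lmod2* and *Trim63* passed as lower, 6 of the slow fibre markers were higher and 4 lower, with a median log2 difference of 0.07. Fast fibre markers summed to 102996 and 96116 FPKM in WTAL and KOAL, and to 159862 and 140698 in WTDR and KODR, with 0 of 11 past the test in either diet comparison, and 1 and 0 at an unadjusted p under 0.05. Adipocyte markers summed to 1861 FPKM in WTAL, 631 in WTDR, 2077 in KOAL and 2807 in KODR, and all 8 were detected in every group. All 8 had lower values in WTDR than in WTAL, with a median log2 difference of -1.60, 1 past the test and 5 at an unadjusted p under 0.05. All 8 had higher values in KODR than in WTDR, with a median of 2.43 and 5 past the test. Satellite cell, fibroblast and immune markers summed to between 180 and 258 FPKM, of which *Dcn* alone had 139 to 208. All 8 of them that were tested had lower values in WTDR than in WTAL (median log2 difference -0.46, 1 past the test). All 8 were also lower in KODR than in WTAL (median -0.80, 1 past the test), while 4 were higher and 4 lower in KODR than in WTDR. Brain markers summed to between 9.18 and 80.2 FPKM, with 2 of the 8 listed at 0 in KODR. The part of fibre type, of these other cells and of the liver RNA in WTDR in the values of the 9 genes was not tested. In liver itself the liver markers summed to between 61068 and 147186 FPKM, and liver and brain had less than 1 FPKM of *Trim63*, *Lmod2* and *Myoz2* in every group.

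The FoxO and glucocorticoid list also held genes that were lowest in WTDR. Of 16 genes tested, 12 had a lower and 4 a higher FPKM in WTDR than in WTAL, 3 passed the test as lower and 0 as higher, and the median log2 difference was -0.79. The 3 were *Cebpd*, a transcription factor induced by glucocorticoids, at 156 FPKM in WTAL and 25.5 in WTDR (log2 difference -2.61 ± 0.48), *Ddit4*, an inhibitor of mTORC1, at 23.9 and 5.01 (-2.26 ± 0.70), and *Fkbp5*, a co-chaperone of the glucocorticoid receptor, at 31.2 and 8.06 (-1.95 ± 0.60). Between KODR and WTDR 4 of the 16 passed as higher, *Ddit4* by 2.42, *Mt1* by 2.37, *Cebpd* by 2.10 and *Fkbp5* by 1.15 on the log2 scale, whereas *Trim63* and *Fbxo32* had differences of -0.37 and -0.49. In KODR the FPKM of *Cebpd* was 109, of *Ddit4* 26.8 and of *Fkbp5* 17.8. *Mt1*, a metallothionein, was the only one of the list to pass between KOAL and WTAL, higher by 2.27, while 8 of the 16 had a higher FPKM in KOAL. Between KODR and KOAL the Wald test called 0 of the 16, with 0 at an unadjusted p under 0.05. *Pdk4*, a kinase that limits glucose oxidation and a FoxO target, had values of 1526, 335, 1043 and 248 FPKM in WTAL, WTDR, KOAL and KODR, and its log2 difference of -2.19 ± 1.68 between WTDR and WTAL did not pass. Of the FoxO genes themselves, *Foxo1* had 4.60, 2.50, 6.15 and 4.28 FPKM, *Foxo3* had 9.95, 5.91, 7.50 and 5.39, and *Foxo4* had 76.1, 91.5, 79.7 and 79.1. *Foxo1* was higher in KOAL than in WTDR by a log2 value of 1.30, the only pair of muscle groups in which *Foxo1* or *Foxo3* passed.

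**Figure D3:**
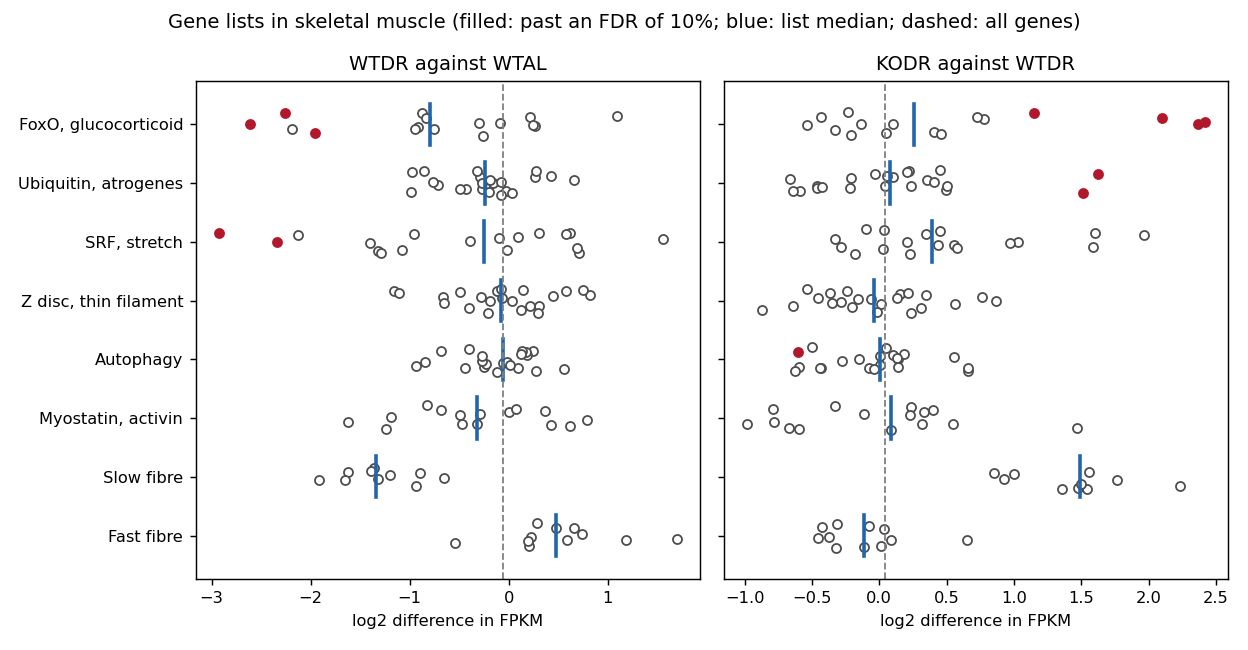
Log2 difference in FPKM (horizontal axis) of the genes of 8 lists in skeletal muscle, for WTDR against WTAL (left) and KODR against WTDR (right). Points are genes, filled red where they passed an FDR of 10%, blue lines are list medians and the dashed line is the median of all entries tested. The slow fibre markers all lay below 0 on the left and above 0 on the right.

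Among the other genes of protein breakdown no ubiquitin ligase passed in any pair of muscle groups. Of 22 ubiquitin ligases and atrogenes, 0 passed the Wald test between WTDR and WTAL and 0 had an unadjusted p under 0.05, with a median log2 difference of -0.24. The MuRF paralogs *Trim54* and *Trim55* had 327, 287, 287 and 332 FPKM and 29.4, 39.6, 24.8 and 25.5 FPKM in WTAL, WTDR, KOAL and KODR. *Cdkn1a*, the cell cycle inhibitor p21, rose between KOAL and WTAL by 1.70 on the log2 scale, from 16.7 to 54.1 FPKM, and between KODR and WTDR by 1.62. *Eif4ebp1*, a repressor of cap-dependent translation, rose by 1.51 between KODR and WTDR. Of 21 autophagy genes, 0 passed between WTDR and WTAL, with 0 at an unadjusted p under 0.05, and *Atg12* fell between KODR and WTDR by a log2 difference of -0.60. *Bnip3l*, the paralog of *Bnip3*, had values of 41.9, 35.3, 32.9 and 37.9 FPKM.

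Of the sarcomere genes beside *Lmod2* and *Myoz2*, 0 of 22 passed between WTDR and WTAL, with 1 at an unadjusted p under 0.05. The calsarcin and leiomodin paralogs were among those that did not pass. *Myoz1*, the calsarcin of fast fibres, had 1807, 2092, 1626 and 2001 FPKM in WTAL, WTDR, KOAL and KODR, and *Myoz3* had 34.0, 25.7, 17.1 and 20.1. *Lmod3* had 60.4, 107, 74.1 and 58.2 FPKM, and *Lmod1*, the smooth muscle leiomodin, had 3.02, 1.91, 7.26 and 3.47. *Lmod1* was higher in KOAL than in WTDR by 1.93 ± 0.59 on the log2 scale, the only gene of this list to pass in any of the 6 pairs of muscle groups. Of 18 genes of SRF and of stretch tested beside *Abra*, 11 had a lower and 7 a higher FPKM in WTDR than in WTAL, and 7 had an unadjusted p under 0.05. The test was passed by 2 as lower and by 0 as higher. They were *Ankrd2*, a stretch-responsive ankyrin repeat protein, from 169 to 22.2 FPKM (-2.93 ± 0.61), and *Csrp3*, a Z disc LIM protein, from 158 to 31.1 FPKM (-2.34 ± 0.63). *Srf* itself had 24.6, 24.4, 31.1 and 36.5 FPKM.

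Few genes around *Mstn*, *Myod1* and *Myog* passed the test. Of 15 myostatin and activin genes tested, 0 passed between WTDR and WTAL, between KOAL and WTAL or between KODR and WTDR, with 0, 0 and 1 at an unadjusted p under 0.05. The receptor *Acvr2b* had 1.29, 2.23, 2.38 and 2.06 FPKM in WTAL, WTDR, KOAL and KODR, and the inhibitor *Fst* had 2.42, 1.73, 2.45 and 2.04. Among the myogenic regulators, *Myf6*, the factor of mature fibres, rose between KOAL and WTAL from 26.8 to 52.0 FPKM (0.96 ± 0.25 on the log2 scale). Between KODR and WTDR *Id1*, an inhibitor of these factors, rose by 1.85, and *Mef2c* and *Six4* fell by 0.86 and 0.63 on the log2 scale. Of 10 genes of the denervation response tested, 0 passed between WTDR and WTAL, with 0 at an unadjusted p under 0.05, and 0 passed between KODR and WTDR, with 2.

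Across tissues 8 of the 9 genes had a higher FPKM in every muscle group than in any group of another tissue. The lowest muscle group exceeded the highest group of any other tissue by 150-fold for *Mstn*, 52.7-fold for *Trim63*, 52.6-fold for *Abra*, 51.4-fold for *Lmod2*, 31.0-fold for *Myog*, 30.4-fold for *Myod1*, 23.6-fold for *Myoz2* and 5.34-fold for *Fbxo32*. *Bnip3* was the exception, with 407 FPKM in WTAL WAT, 147 to 171 in the other WAT groups, 103 to 179 in liver and 23.2 to 40.2 in brain. *Fbxo32* had 2.38 to 8.59 FPKM in WAT, 3.03 to 3.42 in brain and 0.547 to 0.801 in liver. In WAT *Trim63*, *Abra*, *Lmod2* and *Myoz2* reached at most 2.10, 2.40, 1.25 and 1.42 FPKM, each in a group labelled KO. *Myod1* was listed at 0 in 6 and *Myog* in 8 of the 12 groups of the other tissues.

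**Figure D4:**
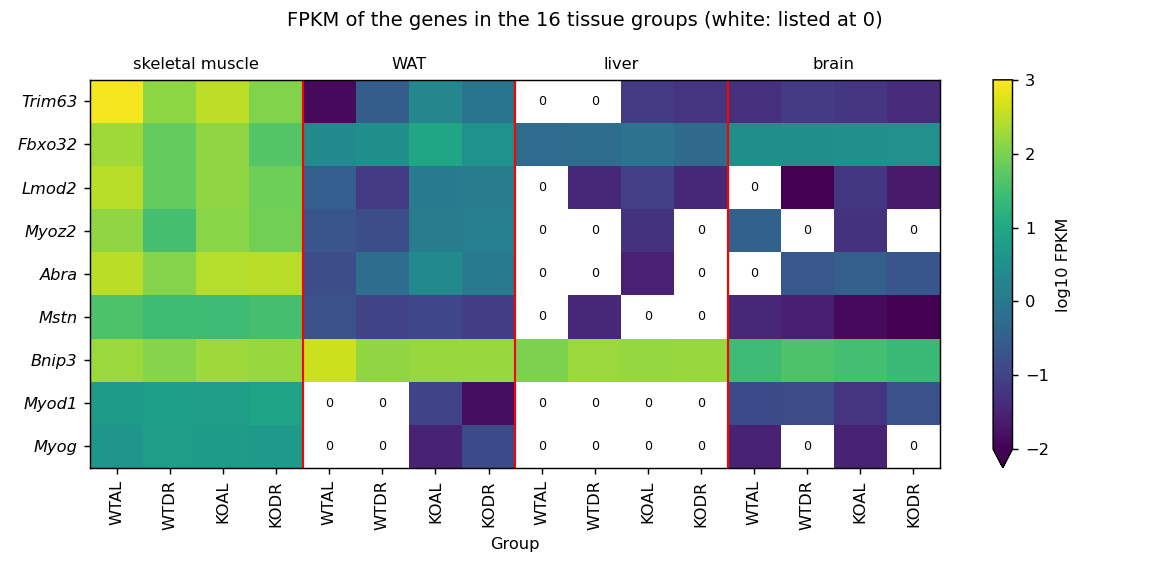
FPKM of the 9 genes, on a log10 colour scale, in the 4 groups of each of the 4 tissues. White cells marked 0 are groups in which a gene is listed at 0. *Bnip3* is bright in all tissues, and the other genes are bright in skeletal muscle.

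In WAT 6 of the 9 genes could be tested between KOAL and WTAL and 1 passed, against 1.29% of the 15481 entries tested. *Trim63*, *Abra*, *Lmod2* and *Myoz2* had 0.0136, 0.153, 0.309 and 0.212 FPKM in WTAL. They met the limit of 1 FPKM only through KOAL, so their higher values in KOAL were fixed by that limit. *Fbxo32* had an FPKM of 2.38 in WTAL (1.33 to 3.43), 3.10 in WTDR (0 to 6.46), 8.59 in KOAL (3.82 to 13.4) and 3.50 in KODR (1.24 to 5.76). KOAL was the highest group and did not overlap WTAL. The log2 difference of KOAL from WTAL was 1.85 ± 0.51, which passed, and the call was lost with a t distribution. *Abra*, at 2.40 FPKM in KOAL and 0.153 in WTAL, did not pass (log2 difference 3.97 ± 1.33). Fast fibre markers summed in WAT to 39.1 FPKM in WTAL, 284 in WTDR, 1043 in KOAL and 418 in KODR. All 11 were higher in KOAL than in WTAL, 7 of them past the test. Of 10 skeletal muscle markers 9 were higher there, with a median log2 difference of 3.20, and 4 passed. Their sums, 541, 360, 1038 and 674 FPKM in WTAL, WTDR, KOAL and KODR, had another order, with WTDR lowest. Among the fast fibre and skeletal muscle markers *Myh1*, *Myh2*, *Myh4*, *Pvalb* and *Ryr1* also met the limit of 1 FPKM only through KOAL. Slow fibre markers summed to 89.3, 68.6, 85.4 and 99.8 FPKM in WTAL, WTDR, KOAL and KODR. Of 8 tested, 6 were higher and 2 lower in KOAL than in WTAL, and 0 passed. The 6 that were higher met the limit only through KOAL. Muscle RNA in the fat samples was not tested as a part of the *Fbxo32* value.

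The entries most like each gene over the 4 muscle groups were sought among 6946 single genes with at least 5 FPKM in every group, by the root mean square distance between log2 profiles centred on their means. Over 4 points this is a description. *Pdk4*, *Lmod2* and *Tgif1* lay nearest to *Trim63*, at distances of 0.32, 0.38 and 0.41. *Tmem140*, *Tgif1* and *Peg3* lay nearest to *Fbxo32* (0.18, 0.21 and 0.25), and *Bdh1*, *Tgif1* and *Zrsr1* to *Lmod2* (0.17, 0.18 and 0.29). *Tgif1*, a repressor of TGF-beta targets, thus appeared beside 3 of the genes, with 18.5, 5.55, 11.1 and 5.11 FPKM in WTAL, WTDR, KOAL and KODR. *Fkbp5* was nearest to *Myoz2* at 0.09, and *Htra3*, *Anxa2* and *Lama4* were nearest to *Abra* (0.04, 0.06 and 0.06). *Fxr2* was nearest to *Mstn*, *Art3* to *Myod1* and *Pltp* to *Bnip3*. *Myog* was not placed because its FPKM in WTAL was under 5.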

How the data were processed

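Poly(A) RNA of 43 libraries in 16 groups (4 tissues, 4 groups each) was sequenced on an Ion Proton. Per the labels and the study's methods, the authors trimmed reads with cutadapt 1.5, aligned them to GRCm38 and ran Cuffdiff 2.2.1, and deposited FPKM values with 95% intervals per group, not per library. The depth per library is unknown and precision is that of the authors' interval. The table lists 42349 entries, 873 of them joining overlapping genes.

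The distance from FPKM to upper bound was read as 2 SDs. Log2 differences were tested by a two-sided Wald test (delta-method SE, normal distribution) with Benjamini-Hochberg adjustment within a tissue and comparison at an FDR of 10%, in entries with status OK, an FPKM above 0 in both groups and at least 1 in one. The test was tried first on simulated data whose noise had the SD that the test assumes. That trial could not show whether the authors' intervals, from 2 or 3 libraries, are of the right width. Each p-value measures the spread carried by the authors' intervals. With 2 or 3 libraries per group and no library values an exact test could not be run, so differences are given with SE and with whether they passed, and individual p-values are not printed. Each of 7 contrasts in muscle (6 pairs of groups and the interaction) was fitted over all entries.

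The genes and lists were chosen with earlier results of these data known. Named beside the 9 genes are their direct partners, up to 4 passing genes per list and comparison, and the 3 nearest profiles. The lists were ubiquitin ligases and atrogenes, FoxO and glucocorticoid response, autophagy, myostatin and activin signalling, myogenic regulators, denervation response, SRF and stretch response, Z disc and thin filament, and markers of fibre types and other tissues. Alternatives were an FDR of 5%, non-overlap of intervals, a t distribution, pseudocounts, other FPKM limits, a minimum fold, centring, no joined entries, and the SD divided by the square root of the number of libraries. Python 3.11.15, numpy 2.4.6, pandas 2.3.3, scipy 1.17.1 and matplotlib 3.10.9 were used. WAT has 2 libraries in the labels for WTDR.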

Additional observations from a re-analysis of the deposited data

How the results depend on the processing

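Between WTDR and WTAL the 3 genes called became 0 with a t distribution (libraries less groups as degrees of freedom) and 5 with the SD divided by the square root of the number of libraries. Between KODR and WTAL the 2 became 0 with a t distribution, 1 (*Lmod2*) where intervals had to be apart, and 5 with the divided SD. With the divided SD the count was 3 between KODR and WTDR, 2 between KODR and KOAL, 5 between KOAL and WTDR and 1 (*Myoz2*) for the interaction, each 0 in the reported test. *Abra* was -0.02 between KODR and WTAL and 0.012 after centring on the median of all entries. Under an FDR of 5%, an FPKM of at least 5 or none, both pseudocounts, a minimum fold, centring and without joined entries, no muscle call of the 9 genes was lost. A pseudocount of 0.1 added the calls of *Trim63* and *Abra* between KOAL and WTAL in WAT, where both met the FPKM limit only through KOAL.

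Over all entries the count between WTDR and WTAL went from 197 to 2 with a t distribution and 897 with the divided SD. The same counts were 96, 1 and 514 between KOAL and WTAL, 313, 10 and 1505 between KODR and WTDR, 70, 6 and 377 between KODR and KOAL, 123, 1 and 1303 between KODR and WTAL, 267, 6 and 1135 between KOAL and WTDR, 54, 3 and 403 for the interaction, and 199, 0 and 920 in WAT. Intervals apart gave 123 between KODR and KOAL and 198 between KODR and WTAL, a minimum 2-fold difference gave 43 between KODR and KOAL, and pseudocounts of 0.1 and 1 gave 93 and 170 for the interaction.

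No paired analysis was possible because the values are group values with no library columns. Leaving out a library in turn was not run for the same reason. Depth is unknown, and intervals as wide as those of *Trim63* and *Bnip3* limit what can be shown.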
